A study of Homo sapiens with 6 samples.

Results

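The genes of the RNase H2 complex and of nucleic acid sensing were followed in RNA-seq counts of colorectal cancer cells in which the long non-coding RNA *SNHG15* was depleted. The 9 genes were taken by symbol from the 63677 genes of the count table. They are the RNase H2 subunits *RNASEH2A*, *RNASEH2B* and *RNASEH2C*, further genes of Aicardi-Goutières syndrome, *TREX1*, *SAMHD1*, *ADAR* and *IFIH1*, and the genes of cGAS and STING, listed under their older symbols *MB21D1* and *TMEM173*. The set was selected on measured values, since the counts and log2 fold changes of this same comparison were known when it was put together. Differences between the groups are therefore given as a description and without a test. Of the 9 genes, 8 were among the 12507 genes with enough counts to be tested, and *TMEM173* was not.

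The cells carry the label LoVo, an established human colorectal cancer line, and were grown in RPMI-1640 medium with serum. The 3 siSNHG15 libraries came from cells transfected with 2 siRNAs against *SNHG15* together, and the 3 scramble libraries from cells given a negative control siRNA. All cells received siRNA at 25 nM with a Lipofectamine reagent and were collected after 48 h, so the transfection itself is common to both groups, and the effect of one siRNA cannot be told apart from that of the other. The study describes the replicates as biological.

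RNase H2 is a nuclease of 3 different subunits. RNASEH2A carries the catalytic site, while RNASEH2B and RNASEH2C form the partner pair that the enzyme needs for activity, and RNASEH2B also binds the replication clamp PCNA. The enzyme cuts the RNA strand of RNA-DNA hybrids and removes single ribonucleotides that DNA polymerases leave in the genome. TREX1 degrades DNA in the cytosol, SAMHD1 hydrolyses dNTPs, and ADAR edits double-stranded RNA, so that each of them limits the nucleic acid that a cell's sensors can meet. IFIH1, also called MDA5, senses long double-stranded RNA. cGAS senses DNA and makes cyclic GMP-AMP, which activates STING and through it the interferon genes. Inherited loss of an RNase H2 subunit, TREX1, SAMHD1 or ADAR, or gain of function of IFIH1, causes Aicardi-Goutières syndrome, an inflammatory disease with raised interferon signalling.

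The libraries held between 3446922 and 10256710 counts, with scramble replicate 3 the smallest, and a limit of 3 counts corresponded to between 0.298 and 0.905 CPM, the count relative to the library total after scaling with TMM factors. *SNHG15* had 290, 277 and 261 CPM in the scramble libraries and 77.2, 83.1 and 87.2 CPM in the siSNHG15 libraries, a log2 fold change of -1.74 (SE 0.12, adjusted p = 2.6e-05, edgeR). Within the siSNHG15 group, replicate 1 stood farthest from the others, where the chi-square divided by its degrees of freedom was 13.2 and 18.5 against replicates 2 and 3, and 4.31 between those. Markers of intestinal epithelium were only partly present. *EPCAM*, *KRT20*, *VIL1* and *CEACAM5* had 0 or 1 count in every library, while *CDX2* had 96 to 284 counts, *KRT8* 166 to 493, *KRT18* 76 to 235 and *CDH1* 22 to 86. The first 4 do not match the label. *KAT5* and *ZCCHC3*, which are not specific to a cell type, also had at most 5 counts, and the annotation used for counting is not given, so a count near 0 may not show that a gene was silent. The identity of the cells was not tested, and they are called cells labelled LoVo. The summed level of the 8 epithelial markers was 102 to 110 CPM in scramble and 106 to 117 CPM in siSNHG15 libraries. Of the markers of other cells, 5 of 6 immune, 3 of 4 fibroblast and the 1 endothelial marker measured had 3 counts or fewer in every library. Summed fibroblast markers were at 0.234 to 0.796 CPM in scramble and 0.719 to 1.25 CPM in siSNHG15 libraries, summed immune markers at most at 0.605 and 0.470 CPM, and their part in the results was not tested.

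Among the 9 genes, *RNASEH2C* was the one that passed the threshold used for all genes (edgeR, adjusted p under 0.05), and it was lower with *SNHG15* siRNA. *RNASEH2A*, *RNASEH2B* and *RNASEH2C* were lower in all 3 siSNHG15 libraries than in any scramble library, *MB21D1* was higher in all 3, and the groups overlapped for *TREX1*, *SAMHD1*, *ADAR* and *IFIH1*. Over all genes tested, 5.36% were called, 3.13% as higher and 2.23% as lower. Groups that did not overlap were seen for 14.7% of all genes as higher and for 14.1% as lower. DESeq2 called 3 of the 8 genes, *RNASEH2B*, *RNASEH2C* and *MB21D1*, against 5.8% of all genes. Since the genes were chosen with these values known, nothing is read from these counts. The log2 fold change was above 0 for 4 of the 8 genes and below 0 for 4, with a median of -0.06 beside 0.00 over all genes tested. In bulk RNA, fewer cells that express a gene and less RNA per cell cannot be told apart.

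**Figure D1:**
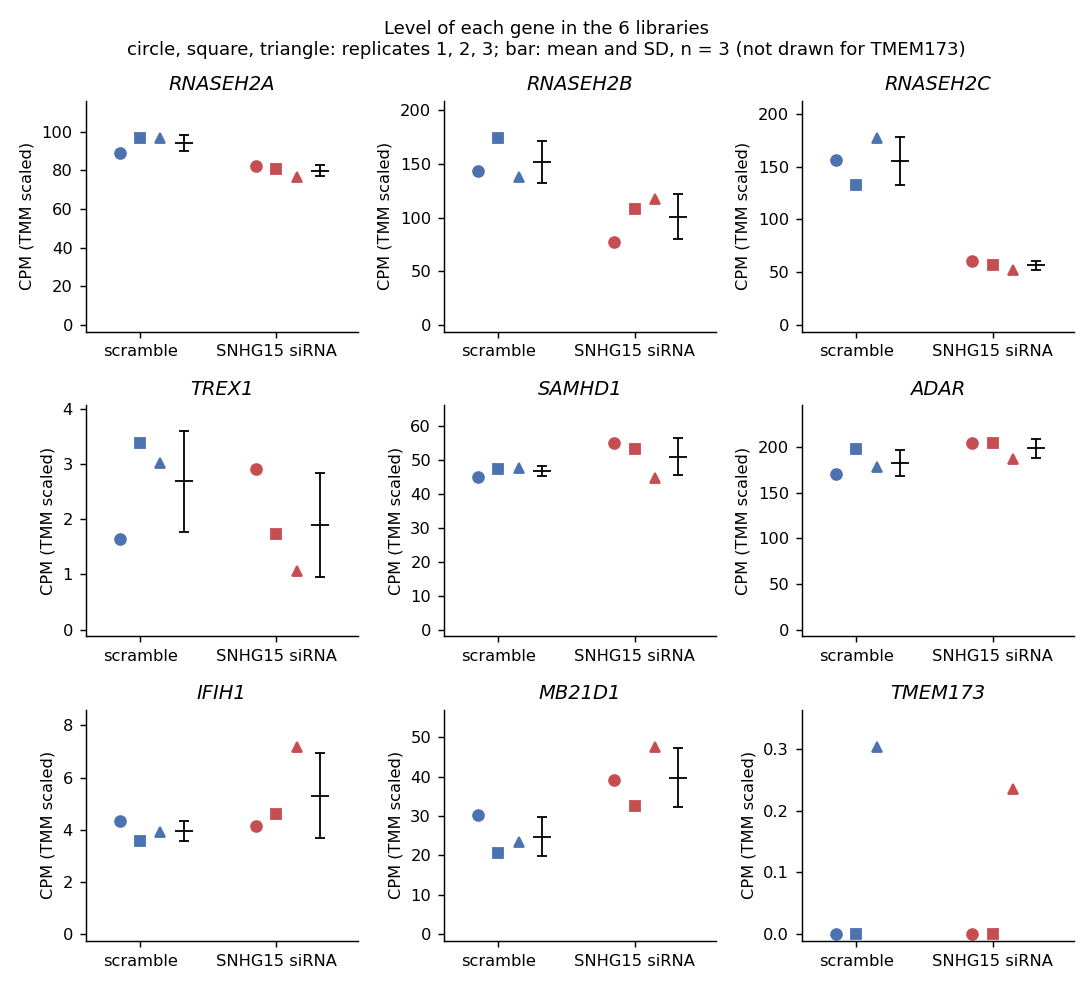
Level of each of the 9 genes in CPM (vertical axis, from 0, separate scale per gene) in the 3 scramble (blue) and 3 siSNHG15 (red) libraries, with the mean and SD of each group beside the points except for *TMEM173*. The red points lie below every blue point for the RNase H2 subunits and above every blue point for *MB21D1*, and the groups overlap for the other genes.

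*RNASEH2C* (ENSG00000172922) lies on the minus strand at chr11:65481476-65488289 in GRCh37. It had 156, 132 and 177 CPM in the scramble libraries and 60.6, 56.8 and 52.4 CPM in the siSNHG15 libraries, from raw counts of 1335, 1329 and 585 against 437, 395 and 446. The siSNHG15 libraries were close to each other, and the highest of them was below the lowest scramble library. The mean went from 155 ± 22.4 to 56.6 ± 4.10 CPM (SD, n = 3 per group). The log2 fold change was -1.45 (SE 0.14), which left 36.6% of the scramble level. That was the 10th lowest log2 fold change of the 12507 genes tested. With any one library left out it lay between -1.55 and -1.35.

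*RNASEH2A* (ENSG00000104889, chr19:12917398-12924454, plus strand), the catalytic subunit, had 89.1, 96.6 and 96.5 CPM in the scramble libraries and 82.2, 80.7 and 76.6 CPM in the siSNHG15 libraries. Its groups did not overlap, but the gap between them was small. The mean went from 94.0 ± 4.31 to 79.8 ± 2.91 CPM (SD, n = 3 per group), 85.0% of the scramble level. The log2 fold change was -0.24 (SE 0.12). It was not called in any alternative fit.

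*RNASEH2B* (ENSG00000136104, chr13:51483883-51598256, plus strand) had 144, 174 and 138 CPM in the scramble libraries and 77.4, 108 and 118 CPM in the siSNHG15 libraries. Every siSNHG15 library was below every scramble library, with siSNHG15 replicate 1 the lowest. The mean went from 152 ± 19.4 to 101 ± 21.0 CPM (SD, n = 3 per group). The log2 fold change was -0.59 (SE 0.16), which left 66.4% of the scramble level. *RNASEH2B* was called when siSNHG15 replicate 3 was left out, at a log2 fold change of -0.72, and in none of the other fits without 1 library.

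Because the subunits work as one complex, their counts were also compared within each library, where the library size cancels. The ratio of *RNASEH2C* to *RNASEH2A* counts was 1.76, 1.37 and 1.83 in scramble and 0.737, 0.704 and 0.684 in siSNHG15 libraries. The groups did not overlap, and the mean ratio went from 1.65 ± 0.249 to 0.708 ± 0.0267 (SD, n = 3 per group), with 42.9% of it left. Such a ratio can be compared between groups but does not give the balance of molecules, as the transcripts differ in length. The ratio of *RNASEH2C* to *RNASEH2B* was 1.09, 0.759 and 1.28 in scramble and 0.783, 0.527 and 0.445 in siSNHG15 libraries, where siSNHG15 replicate 1 lay above scramble replicate 2. The ratio of *RNASEH2B* to *RNASEH2A* was 1.61, 1.80 and 1.43 in scramble and 0.941, 1.34 and 1.54 in siSNHG15 libraries, and the groups overlapped there too. The ratios are built from the counts that chose the genes and carry no test.

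**Figure D2:**
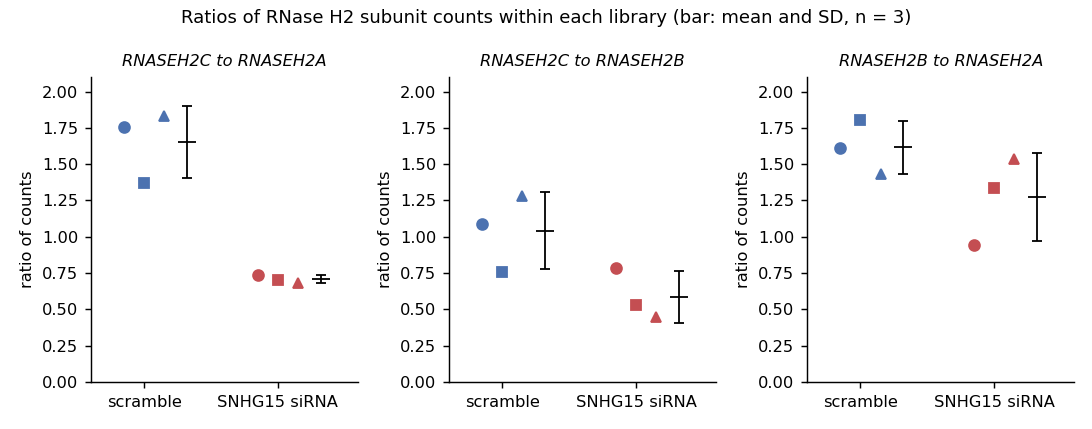
Ratio of the counts of one RNase H2 subunit gene to another (vertical axis, from 0) in each of the 3 scramble (blue) and 3 siSNHG15 (red) libraries, with circles, squares and triangles for replicates 1, 2 and 3 and the mean and SD of each group. The groups separate for *RNASEH2C* to *RNASEH2A*, at 1.37 to 1.83 against 0.684 to 0.737, and overlap for the other two ratios.

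Levels of different genes can be set beside each other only per length. Per kilobase of the canonical transcript, the scramble means were 100 ± 12.8 CPM for *RNASEH2B*, 80.8 ± 3.70 for *RNASEH2A* and 58.7 ± 8.46 for *RNASEH2C* (SD, n = 3 each). The ranges of *RNASEH2B*, at 91.3 to 115, and *RNASEH2A*, at 76.5 to 83.0, did not meet, and *RNASEH2C*, at 50.0 to 66.9, was below both. In the siSNHG15 libraries *RNASEH2A* and *RNASEH2B* were at 68.6 ± 2.503 and 66.7 ± 13.9 CPM per kilobase with overlapping ranges, and *RNASEH2C* was at 21.4 ± 1.55. The place of *RNASEH2B* rests on the length used, since its merged annotated exons cover 26222 bp and its canonical transcript 1513 bp. With merged exons *RNASEH2A* had 45.7, *RNASEH2C* 31.2 and *RNASEH2B* 5.79 CPM per kilobase in scramble libraries. With the longest coding transcript they had 80.8, 46.9 and 31.1 in the same order. *RNASEH2B* was thus the lowest subunit on both planned lengths. It was the highest only with the canonical transcript, a length added after the data were seen. *RNASEH2C* was below *RNASEH2A* on each of these lengths. All of the lengths include bases that *RNASEH2C* shares with *KAT5*, 1072 of the 2645 bp of the canonical transcript. The order without those bases was not tested. The remaining genes followed per kilobase of canonical transcript in the scramble libraries with *ADAR* at 27.6 ± 2.14, *SAMHD1* at 10.0 ± 0.322, *MB21D1* at 7.73 ± 1.54, *TREX1* at 2.45 ± 0.839 and *IFIH1* at 1.10 ± 0.105 CPM (SD, n = 3). The libraries of neighbouring genes in that order did not overlap with this length, which was chosen after the data were seen. The place of *TREX1* is uncertain, as all of its merged exon bases are also exon of the gene *ATRIP* on the same strand. With merged exons *MB21D1*, at 5.93 ± 1.18, came above *SAMHD1*, at 4.31 ± 0.138, also with no overlap, so the order of these 2 genes turns with the length too. In the siSNHG15 libraries *MB21D1*, at 12.4 ± 2.34, overlapped *SAMHD1*, at 10.99 ± 1.18, and *TREX1*, at 1.73 ± 0.857, overlapped *IFIH1*, at 1.48 ± 0.453.

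Reads from *RNASEH2C* and from its neighbour can fall on the same bases. The canonical transcript of *RNASEH2C* is 2645 bp long, and 1072 bp of it (40.5%), all in the 3′ UTR, are also exon of *KAT5*, an acetyltransferase gene on the opposite strand. *KAT5* counts were 1, 5 and 1 in scramble and 0, 3 and 0 in siSNHG15 libraries, although 2293 of its 3732 exonic bp are not shared. Other opposite-strand overlaps were smaller, at 9.86% of the merged *SAMHD1* exons (with *TLDC2*, 0 to 11 counts), 4.31% for *MB21D1* (with *DDX43*, 0 to 2 counts) and at most 1.08% for *RNASEH2B* (with *RNASEH2B-AS1* and *GUCY1B2*, 0 to 1 count). How the counting used strand is not given in the sources used here, and the part of the shared bases in the counts of *RNASEH2C* was not tested. The nearest tested genes on either side did not pass the threshold. *RELA*, an NF-κB subunit gene 50915 bp away, had a log2 fold change of -0.33 (SE 0.12, adjusted p = 0.135, edgeR), and *CFL1*, the gene of the actin-binding protein cofilin 102204 bp away, had -0.20 (SE 0.21, adjusted p = 0.601, edgeR). Each of these passed when siSNHG15 replicate 1 was left out, at -0.41 for *RELA* and -0.54 for *CFL1*.

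The siRNA target sites and the matching sites in the 9 genes are shown because the 2 siRNAs were given together and a guide strand can act on a 3′ UTR through its seed, guide bases 2 to 8. The capitals mark the 7 bases that pair with the seed, and all sequences are GRCh37 minus strand, 5′ to 3′. The first 2 lie in *SNHG15* exons at chr7:45023964-45023982 and chr7:45025640-45025658, the next 2 in the *RNASEH2C* 3′ UTR at chr11:65487211-65487229 and chr11:65487154-65487172, and the last in the *MB21D1* 3′ UTR at chr6:74134470-74134488.
SNHG15 target of siRNA 1: ccttgagtctcATGTTCAa
SNHG15 target of siRNA 2: gagcttactgtCACAGCAa
RNASEH2C, upstream site for siRNA 2: tgcgatcccttCACAGCAg
RNASEH2C, downstream site for siRNA 2: aaggagctcttCACAGCAc
MB21D1 site for siRNA 2: ttgaaatttgtCACAGCAa

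The word CACAGCA, complementary to the seed of siRNA 2, occurred 2 times in the 2110 bp 3′ UTR of *RNASEH2C* and once in the 1516 bp 3′ UTR of *MB21D1*. The other 7 genes held neither it nor ATGTTCA, the word of siRNA 1, in the 3′ UTR of the canonical transcript. Only the sense strand was searched, as an siRNA guide pairs with it. Of 3′ UTRs of similar length, 0.8 to 1.2 times that of the gene, 19% of 1455 held CACAGCA at least once for *RNASEH2C* and 13.8% of 1449 for *MB21D1*. The share that held it 2 times, as *RNASEH2C* did, was not counted. Over all 10500 UTRs searched the shares were 16.9% for CACAGCA and 16.1% for ATGTTCA. Along the 19 bases, each *RNASEH2C* site matched the *SNHG15* target at 10 bases and the *MB21D1* site at 12. These counts include the 7 bases of the seed word, by which the sites were found. *RNASEH2C* was lower and *MB21D1* higher in the siSNHG15 libraries, and the part of these sites in either difference was not tested. Both *RNASEH2C* sites lie just after the start of the 3′ UTR, outside the bases shared with *KAT5*.

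**Figure D3:**
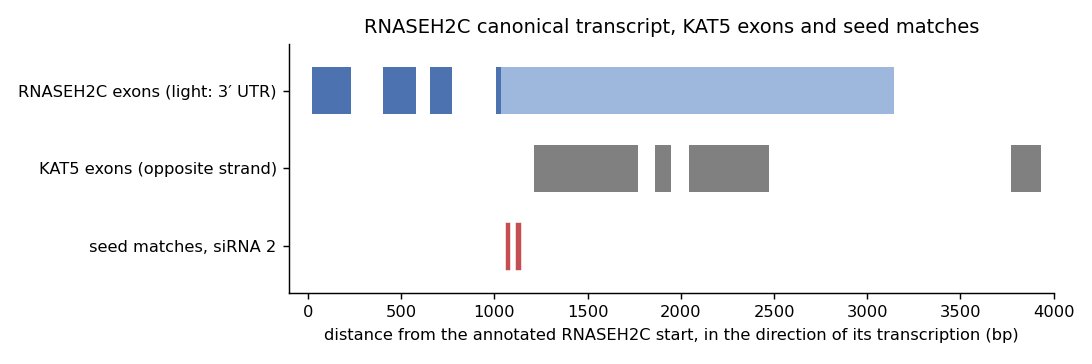
Exons of the canonical *RNASEH2C* transcript (dark blue, 3′ UTR in light blue), exons of *KAT5* on the opposite strand (grey) and the 2 seed matches of siRNA 2 (red), against the distance in bp from the annotated *RNASEH2C* start. The seed matches, at 1060 and 1117 bp, come before the nearest *KAT5* exon, which spans 1214 to 1771 bp on this axis, and *KAT5* exons beyond the axis are not drawn.

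The tested genes with the profile most like that of *RNASEH2C* over the 6 libraries, by Pearson correlation of log2 CPM, were *CCDC12* at 0.997, *RAI14* at 0.997, *ME3* at 0.997, *SNAPC5* at 0.996 and *NELFE* at 0.996. The 6 points share libraries and split into 2 groups, so these values are a description and carry no p. The like profiles were smaller in size, with log2 fold changes from -0.47 for *NELFE* to -0.19 for *SNAPC5*. *NELFE*, a subunit gene of the negative elongation factor, was the one of the 5 that was called (adjusted p = 0.0355, edgeR), and it was not called with the replicate number as a block or in 5 of the 6 fits without 1 library, all but the one without siSNHG15 replicate 1.

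*TREX1* (ENSG00000213689, chr3:48507210-48509044, plus strand) was near the low end of what the libraries could measure. It had 1.64, 3.38 and 3.02 CPM in the scramble libraries and 2.91, 1.73 and 1.06 CPM in the siSNHG15 libraries, from 9 to 34 counts. The groups overlapped, and the log2 fold change of -0.50 had an SE of 0.41 and ranged from -0.95 to -0.17 with each library left out. All 1448 bp of the merged *TREX1* exons are also exon of *ATRIP*, a checkpoint gene on the same strand, so reads of the 2 genes could not be told apart there. *ATRIP* had 8 to 32 counts and a log2 fold change of -0.19 (SE 0.32, adjusted p = 0.766, edgeR).

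*SAMHD1* (ENSG00000101347, chr20:35518632-35580296, minus strand) had 45.0, 47.3 and 47.8 CPM in the scramble libraries and 55.2, 53.2 and 44.9 CPM in the siSNHG15 libraries. siSNHG15 replicate 3 was the lowest of all 6 libraries and replicates 1 and 2 the highest. Its log2 fold change was 0.13 (SE 0.14).

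*ADAR* (ENSG00000160710, chr1:154554171-154600489, minus strand) had 170, 198 and 179 CPM in the scramble libraries and 205, 205 and 187 CPM in the siSNHG15 libraries. Scramble replicate 2 lay above siSNHG15 replicate 3. Here the log2 fold change was 0.12 (SE 0.12).

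*IFIH1* (ENSG00000115267, chr2:163123584-163175194, minus strand) had 4.34, 3.58 and 3.93 CPM in the scramble libraries and 4.16, 4.60 and 7.17 CPM in the siSNHG15 libraries. siSNHG15 replicate 3 stood above the rest, and replicate 1 lay within the scramble range. Its log2 fold change was 0.44 (SE 0.27), and 0.15 without siSNHG15 replicate 3.

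*MB21D1*, the gene of cGAS (ENSG00000164430, chr6:74123238-74162020, minus strand), had 30.2, 20.7 and 23.3 CPM in the scramble libraries and 39.1, 32.5 and 47.5 CPM in the siSNHG15 libraries. Every siSNHG15 library was above every scramble library, but the lowest of the former, replicate 2, and the highest of the latter, replicate 1, were close. The mean went from 24.7 ± 4.94 to 39.7 ± 7.49 CPM (SD, n = 3 per group). The log2 fold change was 0.68 (SE 0.18), or 160% of the scramble level. *MB21D1* was called when siSNHG15 replicate 1 or replicate 2 was left out and in no other fit without 1 library.

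*TMEM173*, the gene of STING (ENSG00000184584, chr5:138855118-138862520, minus strand), had raw counts of 0, 0 and 1 under scramble siRNA and of 0, 0 and 2 under *SNHG15* siRNA. All 6 values are at or under the limit of 3 counts, which allows up to 0.905 CPM in the smallest library. A difference was not detectable at this depth, and no fold is given. The annotation used for counting is not given, so these counts may not show that the gene was silent.

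**Figure D4:**
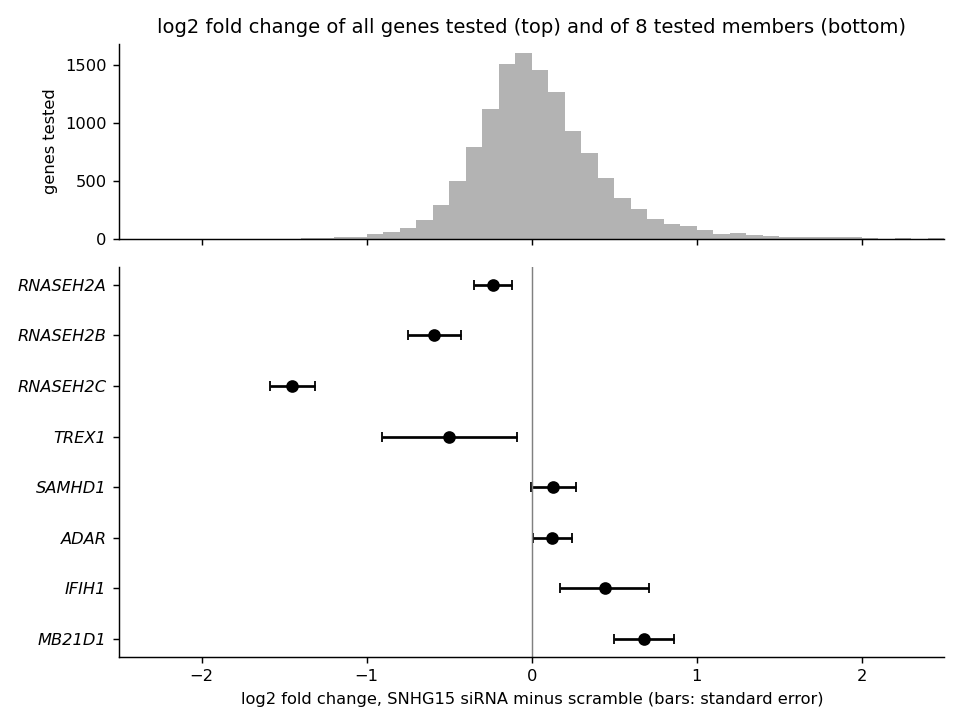
Histogram of the log2 fold change, siSNHG15 minus scramble, of the 12507 genes tested (top, values past the axis drawn in its end bars) and the same measure with its standard error for the 8 tested genes of RNase H2 and nucleic acid sensing (bottom). *RNASEH2C*, at -1.45, lies in the thin lower tail, and the others lie between -0.59 and 0.68.

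The genes of 6 related lists, which hold none of the 9 genes, were read from the same comparison. Of the 117 listed genes 93 were tested, and 5 were called as higher and 5 as lower. The calls lay among interferon-stimulated genes and STING control on the higher side and among replication and dNTP genes on the lower side, with *DDX39B* as the exception. The lists were written with earlier results of these data known, so their counts are a description beside the shares over all genes given above. At an unadjusted p under 0.05 (edgeR), 12% of all genes tested were higher and 10.5% lower.

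Of 22 interferon-stimulated genes, 13 were tested, 3 were called as higher and 0 as lower (edgeR and DESeq2 alike, with 6 higher and 0 lower at an unadjusted p under 0.05), with a median log2 fold change of 0.36. *IFI6*, a mitochondrial protein gene induced by interferon, rose from 26.0 ± 1.77 CPM in scramble to 49.8 ± 8.26 CPM in siSNHG15 libraries (SD, n = 3 per group), with an adjusted p = 0.00611 (edgeR, log2 fold change 0.94, SE 0.16). *ISG15*, a ubiquitin-like modifier, rose from 263 ± 45.9 to 473 ± 73.0 CPM (log2 fold change 0.85, SE 0.16, adjusted p = 0.00918, edgeR), a call lost without scramble replicate 2. *IFIT1*, which binds viral RNA ends, went from 4.45 ± 0.345 to 9.01 ± 1.74 CPM (log2 fold change 1.04, SE 0.23, adjusted p = 0.0202, edgeR), and it kept its call only in the fit without siSNHG15 replicate 1 of the 6 that left out a library. Another 6 genes of the list, among them *CXCL10*, had 3 counts or fewer in every library.

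Of 23 genes of DNA sensing and STING control, 19 were tested, with a median log2 fold change of 0.09, and 2 were higher and 0 lower at an unadjusted p under 0.05. *TRIM56*, a ubiquitin ligase that acts on cGAS and STING, was the 1 gene called. It had 26.6, 26.8 and 30.5 CPM in the scramble libraries and 58.6, 39.4 and 48.5 CPM in the siSNHG15 libraries, with no overlap (log2 fold change 0.82, SE 0.16, adjusted p = 0.0146, edgeR). The call was lost without scramble replicate 1 or 2. *AIM2*, another DNA sensor, and *ZCCHC3*, a cofactor of cGAS, were listed at 0 counts in all 6 libraries.

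Of 16 RNA sensing genes, 12 were tested, and 0 were called by edgeR or DESeq2, with 2 higher and 3 lower at an unadjusted p under 0.05 and a median log2 fold change of 0.16. Of 22 genes that signal from the sensors to interferon and its receptor, 16 were tested and 0 were called by edgeR or DESeq2, with 3 higher and 3 lower at an unadjusted p under 0.05 and a median of 0.02. *IFNB1*, the interferon beta gene, and *IFNL2* and *IFNL3* had 0 counts in all 6 libraries. *IFNL1* counts were 0, 0 and 0 in scramble and 0, 1 and 2 in siSNHG15 libraries, under the limit of 3 counts. *IKBKE*, of the same list, also had 0 counts in all 6 libraries. The annotation used for counting is not given, so these counts may not show that the genes were silent.

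All 18 genes of ribonucleotide removal and RNA-DNA hybrids, the processes that RNase H2 serves, were tested. With edgeR 1 was called as higher and 2 as lower, with DESeq2 1 and 3, and at an unadjusted p under 0.05 there were 3 and 9. The median log2 fold change was -0.30 beside 0.00 over all genes. *PCNA*, the replication clamp, fell from 548 ± 43.1 CPM in scramble to 373 ± 22.9 CPM in siSNHG15 libraries (SD, n = 3 per group), with an adjusted p = 0.0191 (edgeR, log2 fold change -0.56, SE 0.12), and was called in 2 of the 6 fits without 1 library, those without siSNHG15 replicate 1 or 3. *LIG1*, the ligase that seals replicated DNA, fell from 58.6 ± 6.61 to 34.95 ± 10.8 CPM (log2 fold change -0.74, SE 0.19, adjusted p = 0.0438, edgeR), and among those 6 fits was called only without siSNHG15 replicate 1. *DDX39B*, an RNA helicase of the splicing and export machinery, went from 3.82 ± 0.528 to 9.69 ± 3.99 CPM (log2 fold change 1.30, SE 0.29, adjusted p = 0.0227, edgeR), with siSNHG15 replicate 1 the highest. Of its merged exon bases 29.7% are also exon of the readthrough gene *ATP6V1G2-DDX39B* on the same strand, which leaves its counts uncertain, and the call was lost without each of the scramble libraries in turn.

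Of 16 genes of dNTP supply, the process that SAMHD1 opposes, 15 were tested, 0 were called as higher and 3 as lower by edgeR and by DESeq2 (0 higher and 4 lower at an unadjusted p under 0.05), and the median log2 fold change was -0.16. *DUT*, which removes dUTP, fell from 393 ± 18.2 CPM in scramble to 224 ± 10.8 CPM in siSNHG15 libraries (SD, n = 3 per group), with an adjusted p = 0.00372 (edgeR, log2 fold change -0.81, SE 0.12). *RRM2*, the small subunit of ribonucleotide reductase, fell from 373 ± 28.7 to 219 ± 9.11 CPM (log2 fold change -0.77, SE 0.12, adjusted p = 0.00507, edgeR). *TYMS*, thymidylate synthase, fell from 327 ± 23.8 to 213 ± 9.83 CPM (log2 fold change -0.62, SE 0.12, adjusted p = 0.0112, edgeR), a call lost without scramble replicate 1 or 3. *DUT* and *RRM2* were called in every fit without 1 library. Exon bases shared with other genes made up 39.9% of *TYMS* (with *ENOSF1*, opposite strand), 14.5% of *DUT* (with *DUT-AS1*, opposite strand) and, among the interferon-stimulated genes, 23.1% of *IFI6* (with *LINC02574*, same strand).

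**Figure D5:**
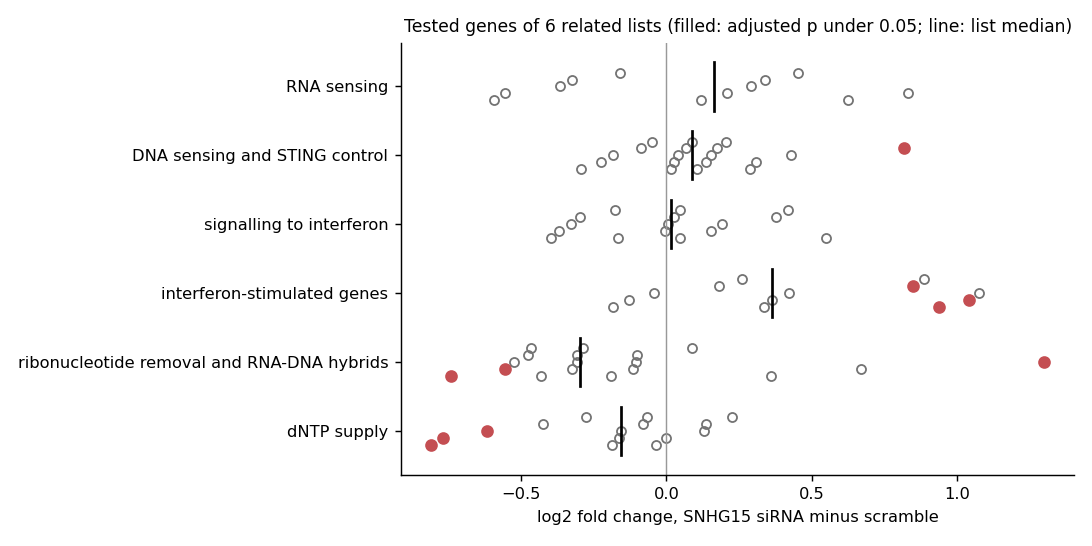
Log2 fold change, siSNHG15 minus scramble (horizontal axis), of each tested gene of the 6 lists (rows, points spread vertically for view), with genes past the threshold filled in red and the list median as a black line. The 10 red points are *TRIM56*, *ISG15*, *IFI6*, *IFIT1* and *DDX39B* on the higher side and *PCNA*, *LIG1*, *DUT*, *RRM2* and *TYMS* on the lower side.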

How the data were processed

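Deposited values are raw read counts per gene, which the authors did not normalize. RNA was prepared with a stranded mRNA kit and sequenced as 75 bp read pairs. The submitters' processing notes name STAR, featureCounts and hg19, whereas the paper's methods name another aligner. Versions, annotation and strand setting are not given in the sources used here, and the notes and the paper also name different RNA extraction reagents.

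Groups and replicate numbers came from the sample titles. Counts were filtered with filterByExpr (minimum count 10, total 15), scaled with TMM and tested by the edgeR 4.0.16 quasi-likelihood test in R 4.3.3, siSNHG15 against scramble, with no block. A gene was called at a Benjamini-Hochberg adjusted p under 0.05. The SE is the absolute log2 fold change divided by the square root of the F statistic of that test, so it is derived from the test itself. Of 63677 genes, 23675 had counts and 12507 were tested. CPM are scaled with the TMM factors, which ranged from 0.961 to 1.06. The limit of 3 counts covers counting error only. Positions, exons and UTRs came from GENCODE 44 on GRCh37, in which 8012 identifiers had no entry.

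The members and lists were chosen with earlier results of these data known. Named are *SNHG15*, the 9 genes, up to 3 called genes of each list by smallest p, exon-sharing and neighbouring genes, the 5 genes most correlated with *RNASEH2C*, and markers. *CXCL10*, *AIM2*, *ZCCHC3*, *IKBKE* and the interferon genes were named outside that rule, after their values were seen. Alternatives were DESeq2 1.42.0, RLE and upper-quartile factors, 2 other filters, protein-coding genes only, a replicate block, leaving out each library, and other transcript lengths. The steps were tested on simulated data.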

Additional observations from a re-analysis of the deposited data

How the results depend on the processing

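*RNASEH2C* passed the threshold in all 7 alternative fits and all 6 fits without 1 library. The genes were chosen with the values of this comparison known, so their calls describe the fits and are no independent support. Of the 8 tested genes, 3 were called with DESeq2, with RLE factors and with no filter on low counts, 2 with upper-quartile factors and with protein-coding genes only, and 1 to 2 with a library left out. The added calls were *RNASEH2B* and *MB21D1*. Beside them, the calls over all genes tested were 761 of 13118 with DESeq2, 684 of 12507 with RLE factors and 1312 of 23675 with no filter. They were 745 of 12507 with upper-quartile factors and 585 of 10527 with protein-coding genes only. Over all genes, 1312 were called with no filter (685 higher and 627 lower) beside 671 (392 and 279), and 139 to 812 with a library left out, namely 139 without scramble replicate 2, 199 without scramble replicate 1, 266 without scramble replicate 3 and 356 without siSNHG15 replicate 2. The share of higher calls, 58.4%, was 69.1% with upper-quartile factors (515 higher and 230 lower), and DESeq2 called 381 as higher and 380 as lower. Of the list genes, 16 were called with no filter beside 10, and 4 to 13 with a library left out. *LIG1* was not called with upper-quartile factors or at 10 counts in every library. Among the named genes that were called, none changed direction in the alternatives run. The cause of these shifts was not tested, and fits without a library rest on fewer samples.

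Samples of the same replicate number showed little shared deviation (correlations -0.07, 0.155 and -0.042, with replicate 2 alone matching its own number best). With 3 libraries per group this cannot decide whether the numbers pair the samples, and the labels do not say. With the replicate block 543 genes were called, 1 of the 9 genes and 10 list genes. The ratio of *RNASEH2C* to *RNASEH2A* per kilobase in scramble libraries was 0.684 with merged exons, 0.581 with the longest coding transcript and 0.728 with the canonical transcript, a length added after seeing the data. None of these lengths leaves out bases shared with *KAT5*. Counts were low for *TREX1*, *IFIH1* and *TMEM173*, which limits their precision.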
